A study of Spodoptera frugiperda with 3 samples.

Results

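Genes for protein folding, disulfide formation and glycan trimming in the secretory pathway were followed in the Verson's glands of the fall armyworm, *Spodoptera frugiperda*. They are the 5 rows of the gene tables, of 20644 listed, that hold an FK506-binding protein 2-like gene (LOC118277063), a pair of peptidyl-prolyl cis-trans isomerase B-like genes (LOC118266399 and LOC118265987), a sulfhydryl oxidase 1-like gene (LOC118265187) and an alpha-mannosidase 2-like gene (LOC118267030). The rule that picks them uses identifiers and protein names and no measured value, but the study drew lists from these libraries against other tissues. LOC118266399 and LOC118265187 are on its list of genes higher in the glands. LOC118265987 is on its list of genes lower in the glands. Verson's glands are dermal glands of the caterpillar, each built around a large polyploid secretory cell, with a saccule cell and a duct cell. The glands came from L6 larvae, the last instar, from prepupae and from pupae. Each stage gave 1 library made from isolated total RNA, and any rRNA removal is not described in the paper. The paper reports that the glands undergo programmed cell death and disappear soon after pupation. All 3 libraries carry the same genotype, FAW-SID1, a transgenic strain with green fluorescent protein under the hr5-IE1 promoter and the nematode double-stranded RNA channel SID1 under the IE1 promoter. An untransformed strain was not analysed here, and the number of animals behind each library is not given in the sources used here.

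A secreted protein enters the endoplasmic reticulum (ER) as an unfolded chain. Prolyl isomerases there turn the peptide bond before proline, disulfide isomerases and oxidases join cysteines, lectin chaperones hold glycoproteins until they fold, and Golgi mannosidases then trim the attached glycan. Mammalian FKBP2 and cyclophilin B (the PPIB product) are prolyl isomerases of the ER, the latter known from collagen folding. Mammalian QSOX1, which the sulfhydryl oxidase resembles by name, forms disulfide bonds in the Golgi and outside the cell, and alpha-mannosidase II trims mannose from N-linked glycans in the Golgi.

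Levels are given as TPM, reads per exon length scaled to a sum of 1000000 in each library. Reads outside rRNA and mitochondrial genes numbered 2610753 in L6, 15161624 in prepupal and 11716156 in pupal glands, so L6 values are the least precise. Because rRNA and mitochondrial genes took 72.5% of the deposited TPM in L6, 0.289% in prepupal and 18.3% in pupal glands, TPM was rescaled without them for comparisons between stages. The rescaling multiplied the values by 3.64, 1.0 and 1.22. Leaving out rRNA alone gave the same factors, so the share is that of rRNA. It is called rescaled TPM here, and for the members the deposited value stands beside it where the stages are compared. Since each stage has a single library, no spread between replicates could be had and no stage difference was tested, and intervals are 95% intervals that cover counting error only.

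The FK506-binding protein 2-like gene was the member with the widest range across the stages. It lies on the plus strand of the files' sequence NC_049710.1, from 8696634 to 8747395, with 6 exons of 1663 bases in all. Its exon reads numbered 2658 in L6, 20421 in prepupal and 1252 in pupal glands, and every one of them mapped uniquely. The rescaled TPM was 634 in L6 (Poisson interval 611 to 659), 1166 in prepupal glands (1150.2 to 1182) and 59.3 in pupal glands (56.0 to 62.7). As deposited, the TPM was 174 in L6, 1163 in prepupal and 48.4 in pupal glands. The prepupa was highest and the pupa lowest on both scales. In bulk tissue, here and for every level that follows, fewer cells of a type and less RNA per cell cannot be told apart. In rank, the gene stood at place 148 of 20506 rows in the prepupa, at 227 in L6 and at 1311 in the pupa.

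Of the peptidyl-prolyl cis-trans isomerase B-like genes, LOC118266399 was abundant in every library and LOC118265987 had no exon read in any. LOC118266399, from 7362074 to 7364886 of NC_049717.1 with 4 exons, had 1388 exon reads in L6, 5539 in prepupal and 9885 in pupal glands. Its rescaled TPM was 512 in L6 (485 to 539), 488 in prepupal glands (476 to 501) and 723 in pupal glands (709 to 737). The pupa was the highest stage, and the intervals of L6 and the prepupa overlapped. As deposited, the TPM was 141, 487 and 590.5, which puts L6 lowest. Its rank was between 203 and 262 in the 3 libraries. For LOC118265987, 3 reads would have given a rescaled TPM of 1.27 in L6, 0.305 in prepupal and 0.253 in pupal glands. The Poisson intervals of its counts of 0 reach 1.57, 0.375 and 0.311. These values cover counting error only and set no limit on reads that were listed on LOC118266399.

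The sulfhydryl oxidase 1-like gene was low to moderate and highest in L6 after rescaling. It lies on the plus strand of NC_049710.1 from 14865802 to 14876697, with 2 exons of 2755 bases. It had 247 exon reads in L6, 297 in prepupal and 416 in pupal glands, all of them unique. The rescaled TPM was 35.6 in L6 (31.3 to 40.3), 10.2 in prepupal glands (9.11 to 11.5) and 11.9 in pupal glands (10.8 to 13.1). The L6 interval lay above the other two, which overlapped each other. The deposited TPM was nearly level, at 9.79, 10.2 and 9.71, so the height of L6 rests on the rescaling.

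The alpha-mannosidase 2-like gene was the lowest of the members with reads. It lies on the minus strand of NC_049710.1 from 17715702 to 17796148, a gene of 80447 bases with 8 exons of 5252 bases. Its unique exon reads numbered 59 in L6, 310 in prepupal and 308 in pupal glands. The rescaled TPM was 4.46 in L6 (3.39 to 5.75), 5.61 in prepupal glands (5.0 to 6.27) and 4.62 in pupal glands (4.12 to 5.16). The 3 intervals overlapped. The deposited TPM was 1.23, 5.59 and 3.77. The order of the members by rescaled TPM was FK506-binding protein 2-like, LOC118266399, sulfhydryl oxidase and mannosidase in L6 and the prepupa. In the pupa LOC118266399 passed the FK506-binding protein gene and the rest of the order was kept.

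**Figure D1:**
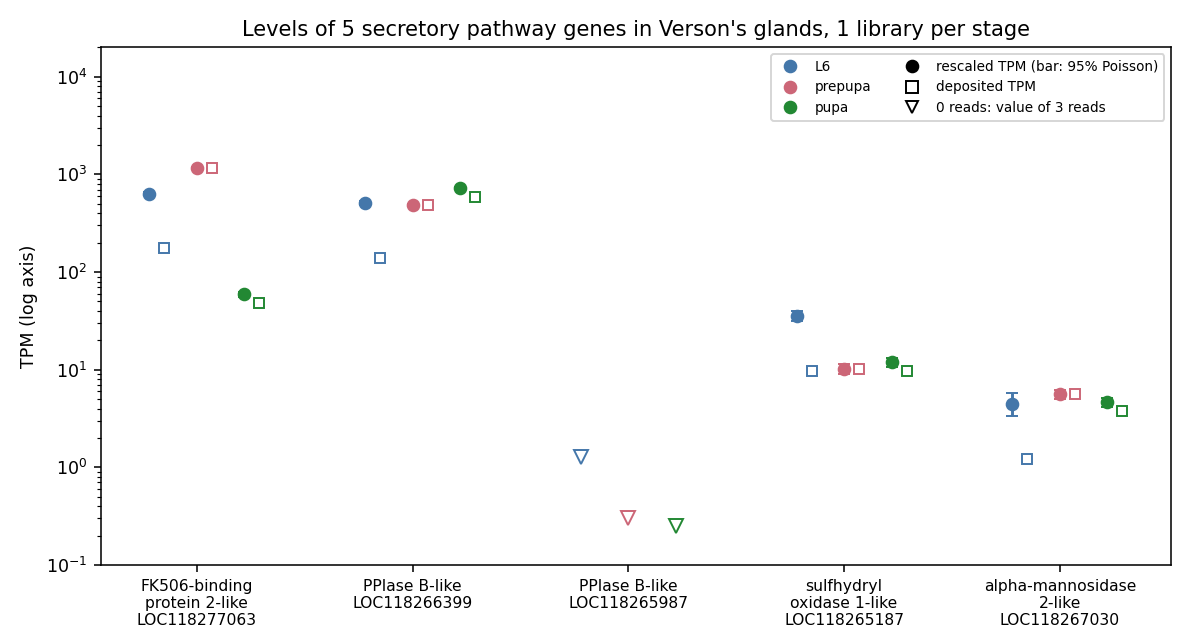
TPM on a log axis (vertical) for each of the 5 genes (horizontal) in the L6, prepupa and pupa libraries. Filled circles are rescaled TPM with 95% Poisson intervals, open squares deposited TPM, and triangles the value of 3 reads where none was counted. The FK506-binding protein 2-like gene spans 59.3 to 1166, while the mannosidase gene stays between 4.46 and 5.61.

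From L6 to the prepupa, 1 member was lower by 2-fold or more on rescaled TPM + 1 and 0 were higher. Of the 12971 genes at a rescaled TPM of 1 or more in at least 1 library, 20.0% were lower and 33.7% higher by that rule, and 4 of the 5 members passed this minimum. The lower member was the sulfhydryl oxidase gene, whose rescaled TPM was 3.48-fold lower in the prepupa (interval 2.92 to 4.13). On deposited TPM its ratio of prepupa to L6 was 1.04, so the difference is absent on that scale. The FK506-binding protein gene was 1.84-fold higher in the prepupa (1.77 to 1.91) rescaled and 6.66-fold higher as deposited. For LOC118266399 the ratio was 0.955 (0.90 to 1.01), and for the mannosidase gene 1.26 (0.949 to 1.69), with deposited ratios of 3.46 and 4.56. The members thus differed from each other in direction on rescaled TPM, whereas on deposited TPM all 4 ratios were above 1 and 3 of them passed 2-fold.

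From the prepupa to the pupa, 1 member was again lower by 2-fold or more and 0 were higher, against 39.8% of all tested genes lower and 22.4% higher. The FK506-binding protein gene was 19.7-fold lower in the pupa (18.6 to 20.8) rescaled and 24-fold lower as deposited. A lower ratio was found for 3.96% of the tested genes. An aminopeptidase N-like gene, the single match to the midgut marker names, went the same way. Its rescaled TPM was 29.5 in prepupal and 0.182 in pupal glands. The study lists this gene among homologs of hemolymph proteins. Whether it marks midgut here, and its part in these levels, were not tested. LOC118266399, a prolyl isomerase too, was 1.48-fold higher in the pupa (1.43 to 1.53) and 1.21-fold higher as deposited. The prolyl isomerase genes differed in direction between these libraries. With the TMM scaling of edgeR, which raised ratios of pupa to prepupa by 1.93-fold, the log2 differences were -3.33 for the FK506-binding protein gene and 1.51 for LOC118266399. Ratios of pupa to prepupa were 1.16 for the sulfhydryl oxidase gene (0.998 to 1.35) and 0.824 for the mannosidase gene (0.701 to 0.968). Both directions depended on the scaling. As deposited, the ratios were 0.952 and 0.675, and the log2 differences were 0.83 and 0.35 with counts per total reads (CPM) and 1.06 and 0.55 with TMM.

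From L6 to the pupa, 2 members were lower by 2-fold or more and 0 higher, against 28.2% of tested genes lower and 20.0% higher. This comparison shares its libraries with the other two and adds no independent evidence. The FK506-binding protein gene was 10.7-fold lower in the pupa (10 to 11.5) and 3.60-fold lower as deposited. For the sulfhydryl oxidase gene the pupa was 2.99-fold lower (2.55 to 3.51), with a deposited ratio of 0.993. LOC118266399 was 1.41-fold higher in the pupa (1.34 to 1.5), and the mannosidase gene had a ratio of 1.04 (0.782 to 1.39). As deposited, these ratios were 4.20 and 3.08, both past 2-fold.

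**Figure D2:**
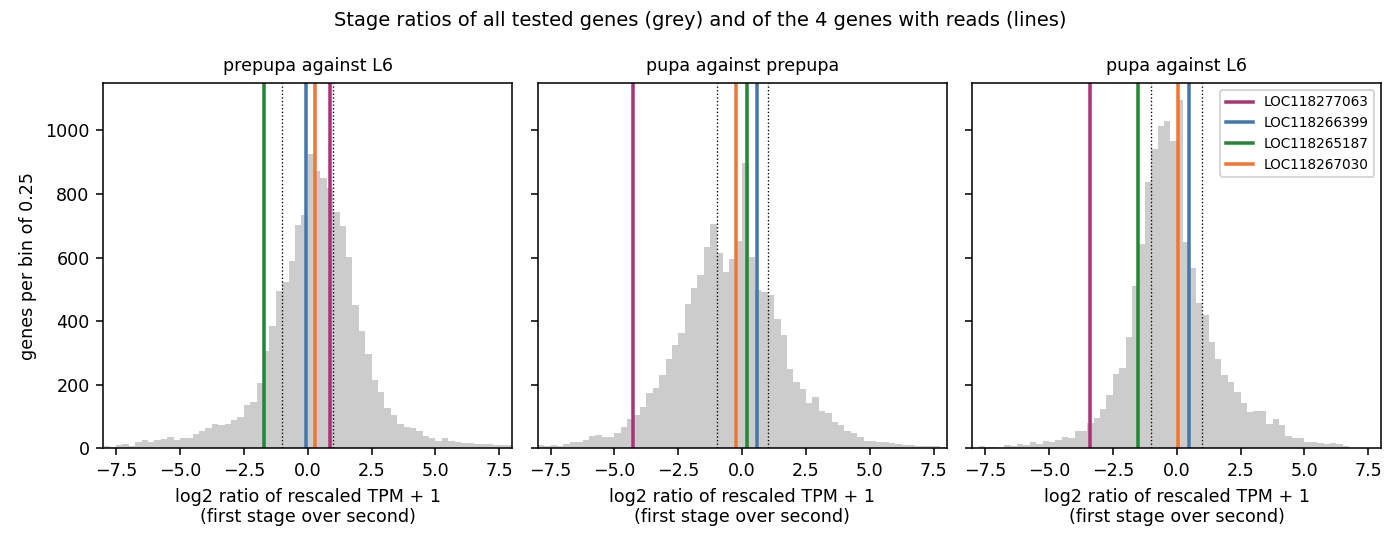
Number of genes per bin (vertical) against the log2 ratio of rescaled TPM + 1 between stages (horizontal), in grey for the 12971 tested genes, with a line for each of the 4 members with reads and dotted lines at 2-fold. The line of the FK506-binding protein 2-like gene (LOC118277063) lies at -4.28 in pupa against prepupa, while the mannosidase line (LOC118267030) stays between -0.23 and 0.27 in the 3 comparisons.

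The peptidyl-prolyl cis-trans isomerase B-like genes lie on NC_049717.1 with starts 638884 bases apart. Genes around them were paired by their order in the listing, and a listed gene near LOC118266399 was passed over before the last pair. This gave 8 gene pairs, the isomerase pair among them. All 8 were on matching strands, 5 had equal numbers of exons and 2 equal exon length. The genes of a pair are called copies here, but their sequences were not compared. One gene of each of the 8 pairs matched the RefSeq genes of the AGI-APGP_CSIRO_Sfru_2.0 assembly, and in the isomerase pair it was LOC118266399. The tables do not say how the authors' software placed reads that fit both copies.

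The values of the isomerase pair depend on that placement. Of the exon reads of LOC118266399, 211 mapped uniquely in L6, 989 in prepupal and 1534 in pupal glands. These are 15.2% (Clopper-Pearson interval 13.4 to 17.2%), 17.9% (16.9 to 18.9%) and 15.5% (14.8 to 16.2%). Between 9.80% and 10.8% of genes with reads in a library had a unique share under 20%. LOC118265987 had neither unique nor shared exon reads, and a single intron read in the pupa. All 16812 reads of the pair were thus listed on the gene with unique reads.

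Neighbouring pairs show how shared reads were listed where both genes, or neither, had unique reads. LOC118266393 and LOC118265985, upstream of the isomerase genes, had no unique reads and listed 43 and 37 reads in L6, 250 and 256 in prepupal and 112 and 117 in pupal glands. The reads of this pair were split about evenly. The other pair without unique reads, LOC118266394 and LOC118265986 directly beside the isomerase genes, listed 6 and 2, 3 and 6, and 13 and 19 reads, too few to tell a split. For LOC118266396 and LOC118265654, named as transmembrane protein adipocyte-associated 1 homologs, the upstream copy held 83.3% of unique and 81.1% of total reads in L6, 78.1% and 77.5% in prepupal and 74.0% and 71.7% in pupal glands. Total reads followed unique reads there, and in LOC118266109 and LOC118266229, with 26.0% and 25% in L6. They did so less closely in LOC118265810 and LOC118265950, with 32.4% of unique and 40.5% of total reads on the upstream copy in L6. For LOC118266395 and LOC118265653 these L6 shares were 90.9% and 77.1%. The tetratricopeptide repeat protein 19 gene LOC118266397 had all unique reads of its pair, and its copy LOC118265655 listed 36 reads in the prepupa and none in the other 2 libraries. A gene without unique reads was therefore not always listed at 0. Across the genome, 1178 of 7839 genes without unique exon reads had total reads in L6, 1063 of 6499 in the prepupa and 1155 of 6664 in the pupa.

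The summed reads of the pair, which do not depend on the split between the 2 copies, equal the reads of LOC118266399 in each library. The TPM does depend on it, since the exon lengths are 1077 bases for LOC118266399 and 935 for LOC118265987. From unique reads alone, rescaled the same way, LOC118266399 had 87.2 in L6, 97.5 in prepupal and 133 in pupal glands. The pupa stayed the highest stage, and the order of L6 and the prepupa was turned. LOC118266399 also overlaps LOC118266397 on the opposite strand by 248 bases and LOC118266394 on its own strand by 191 bases. Strand-specific counting is not stated, so reads in the overlap with LOC118266397 could belong to either gene. LOC118266397 had 65, 387 and 1016 exon reads in L6, the prepupa and the pupa, fewer than the isomerase gene in every library.

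**Figure D3:**
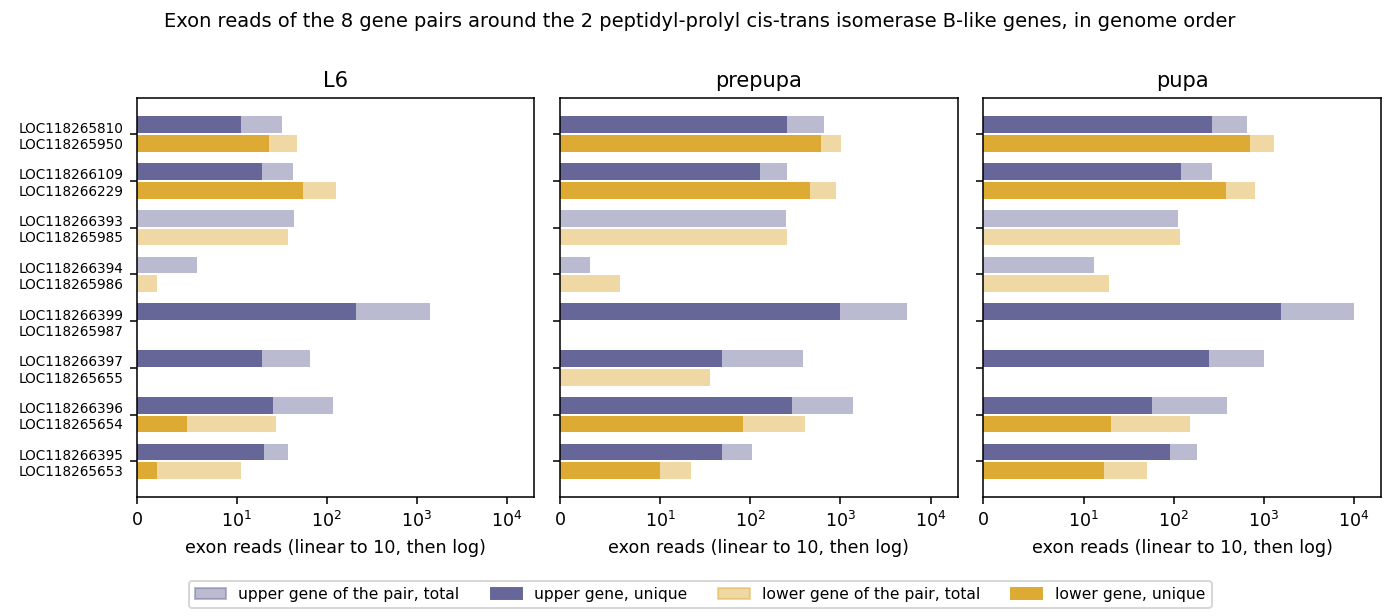
Exon reads (horizontal, linear to 10 and then log) of 8 gene pairs in genome order (vertical), 1 panel per library, with pale bars for total and dark bars for uniquely mapped reads. LOC118266399 reaches 1388, 5539 and 9885 reads while its copy LOC118265987 has no bar, and the pair LOC118266393 and LOC118265985 has nearly equal pale bars and no dark ones.

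Reads on introns and across exon junctions differed between the members. The FK506-binding protein gene had intron reads at 4.90% of its gene reads in L6, 2.41% in prepupal and 6.01% in pupal glands. Other genes with 6 exons and at least 50 exon reads had medians of 2.38%, 1.81% and 1.51%. Junction-spanning reads took 28.0%, 28.9% and 26.7% of the exon reads of the FK506-binding protein gene, a stable share. The medians of those other genes were higher, at 46.3%, 44.3% and 41.4%. LOC118266399 had 42.7%, 42.9% and 42.8% junction-spanning reads and under 1% intron reads in each library. For both isomerase genes with reads the junction share was nearly level across stages, whereas the read counts were not.

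Intron reads took a larger part of the sulfhydryl oxidase and mannosidase genes. For the former there were 104 intron reads of 351 gene reads in L6 (29.6%, interval 24.9 to 34.7%), 391 of 688 in the prepupa (56.8%, 53.0 to 60.6%) and 41 of 457 in the pupa (8.97%, 6.52 to 12.0%). The prepupa share stood far above the pupa share, and in the prepupa intron reads outnumbered the 297 exon reads. Per kilobase, the prepupa had 108 exon reads and 48.0 intron reads. Among other genes with 2 exons and at least 50 exon reads, the median intron share was 0.693% in L6, 0.909% in prepupal and 0.612% in pupal glands. The share of the sulfhydryl oxidase gene was above that of 97.2%, 99.0% and 90.3% of them. No other listed gene overlaps it.

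The mannosidase gene had 53 intron reads of 112 gene reads in L6 (47.3%, 37.8 to 57.0%), 11 of 321 in the prepupa (3.43%, 1.72 to 6.05%) and 38 of 346 in the pupa (11%, 7.89 to 14.8%). L6 was far above the other stages. Over its 75195 intron bases this came to 0.705 reads per kilobase in L6, against 11.2 on exons. Its junction-spanning reads numbered 3 of 59 exon reads in L6 (5.08%, 1.06 to 14.1%), 48 of 310 in the prepupa (15.5%, 11.6 to 20%) and 7 of 308 in the pupa (2.27%, 0.919 to 4.63%). The prepupa and the pupa, with nearly the same number of exon reads, did not overlap in this share. Other genes with 8 exons had median shares of 42.8%, 44% and 37.6%. Equal exon reads of this gene in the prepupa and the pupa therefore came with unequal junction reads, and which exons the reads fell on is not given in the tables.

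**Figure D4:**
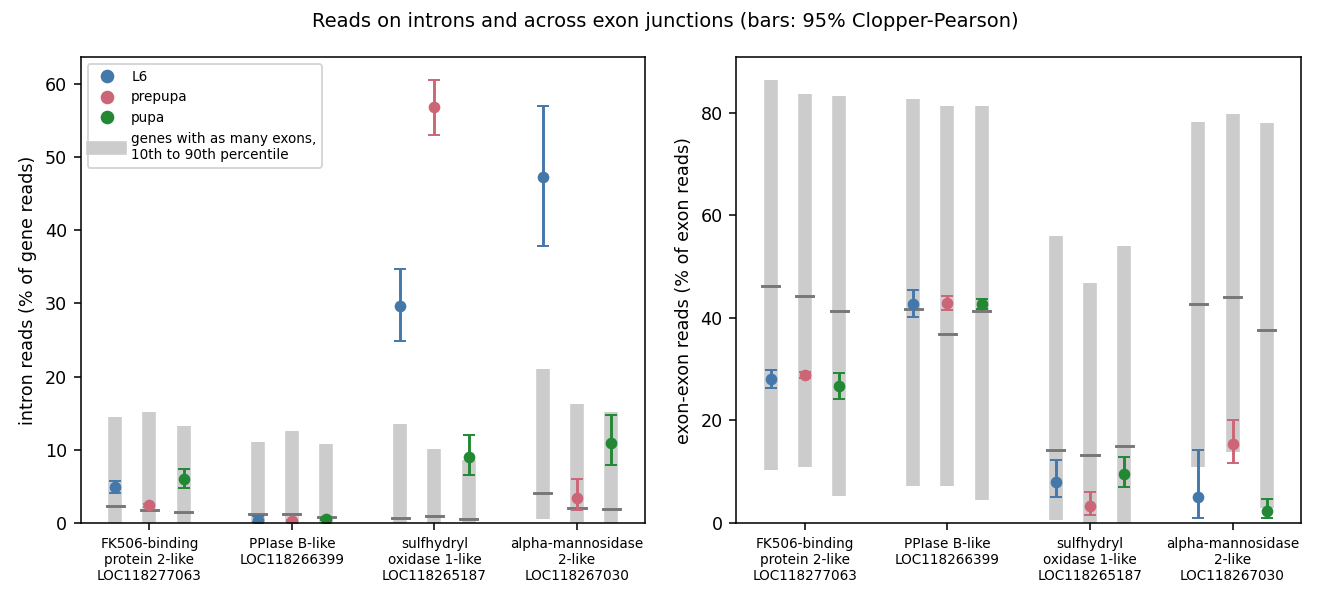
Left, intron reads as a percentage of gene reads, and right, junction-spanning reads as a percentage of exon reads (vertical), for the 4 members with reads in each library (horizontal), with 95% Clopper-Pearson intervals. Grey bars run from the 10th to the 90th percentile of genes with as many exons, with their median as a line. The sulfhydryl oxidase gene reaches 56.8% intron reads in the prepupa and the mannosidase gene 47.3% in L6.

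Other genes of the pathway were found by protein names, which were at hand for 2296 of the listed genes. They gave 38 genes beside the members, of which 33 had been selected by the study on these same libraries against other tissues, so the lists are not independent evidence of a direction. In the prepupa 23 of the 38 were higher than in L6 by 2-fold or more and 2 lower. Of tested genes, 33.7% were higher and 20.0% lower. With TMM 15 were higher, with CPM 14 and on deposited TPM 36, against 26.2%, 28.2% and 63.9% of tested genes. From the prepupa to the pupa 30 were lower and 4 higher, against 39.8% and 22.4% of tested genes. With TMM 24 were lower and 5 higher there, against 26.5% and 32.9%. From L6 to the pupa 22 were lower and 3 higher, against 28.2% and 20.0% of tested genes. This last count turned with the scaling, to 11 lower and 5 higher with TMM, 3 lower and 8 higher on deposited TPM, and 0 lower and 18 higher on deposited RPKM. Of tested genes, 19.1% were lower and 27.4% higher with TMM, 7.02% and 38.1% on deposited TPM, and 3.18% and 44.7% on deposited RPKM. The median log2 differences were 1.15, -2.56 and -1.11, against 0.38, -0.44 and -0.29 over all tested genes. On deposited TPM the median of pupa against L6 turned to 0.31. The prepupa was the highest stage for 31 of the 38, L6 for 2 and the pupa for 5. Of all tested genes 46.4% were highest in the prepupa, 27.1% in L6 and 26.5% in the pupa. With TMM 28 of the 38 were highest in the prepupa, against 37.9% of tested genes. For the counts of single lists that follow, the shares of tested genes given here are the background. The values of single genes that follow are rescaled TPM in the order L6, prepupa, pupa.

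All 6 other genes of the disulfide formation list were lower in the pupa than in the prepupa by 2-fold or more, and 3 were higher in the prepupa than in L6. With TMM these counts were 4 and 1. Protein disulfide-isomerase A3-like (LOC118272081), whose mammalian counterpart works on glycoproteins, had a rescaled TPM of 374 in L6, 2405 in prepupal and 94.9 in pupal glands. Protein disulfide-isomerase-like (LOC118272650), the general thiol oxidoreductase of the ER, had 669, 1184 and 108. On this list of 7, the sulfhydryl oxidase gene alone was lower in the prepupa than in L6 by 2-fold on rescaled TPM. Protein disulfide-isomerase TMX3-like (LOC118272804) was also highest in L6, with 23.6, 21.4 and 7.84.

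The 5 ER chaperones and lectins were all higher in the prepupa than in L6 and all lower in the pupa than in the prepupa by 2-fold or more. UDP-glucose:glycoprotein glucosyltransferase-like (LOC118262403), the folding sensor that tags misfolded glycoproteins, had rescaled TPM values of 6.99, 559 and 2.62 in the order L6, prepupa, pupa. On rescaled TPM + 1 the prepupa was 70.1-fold above L6 and 155-fold above the pupa. Endoplasmin-like (LOC118262141), an ER chaperone of the heat shock protein 90 family, had 55.7, 179.65 and 10.96, with 71.6% of its reads unique. A calnexin-like gene (LOC118263516), a lectin chaperone, went from 3.40 to 68.1 and 3.24, and a DnaJ subfamily C member 3-like gene (LOC118262913), a BiP co-chaperone in mammals, from 18.9 to 65.7 and 4.52. The median log2 difference of prepupa against L6 was 2.76 over this list, beside 0.88 for the FK506-binding protein gene.

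The N-glycan list of 5 other genes was mixed, with 3 lower and 2 higher in the pupa than in the prepupa. The 48 kDa subunit of the oligosaccharyltransferase (LOC118267118), the enzyme that attaches the glycan, had rescaled TPM values of 218, 399 and 46.7. Neutral alpha-glucosidase AB-like (LOC118276613), which removes glucose from the new glycan, had 9.93, 78.0 and 7.06. A mannosyl-oligosaccharide 1,2-alpha-mannosidase IA-like gene (LOC118268143), which acts before alpha-mannosidase II on the glycan, had 1.55, 15.0 and 0.136 from 9, 365 and 4 reads. The pair of genes named as alpha-1,6-mannosyl-glycoprotein 2-beta-N-acetylglucosaminyltransferase-like, the step after alpha-mannosidase II, was highest in the pupa, LOC118268594 with 1.51, 1.95 and 18.7 and LOC118269813 with 1.60, 5.35 and 18.4. No read of LOC118269813 was unique. The mannosidase member lay between these patterns, with no 2-fold difference between any stages on rescaled TPM.

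The prolyl isomerase list, which includes proteins of the cytosol and nucleus, had no common direction. Of its 7 other genes, 2 were higher and 2 lower in the pupa than in the prepupa. A peptidyl-prolyl cis-trans isomerase-like gene (LOC118268330) had the highest level, 3440.2 in L6, 1092 in prepupal and 4009 in pupal glands, lowest in the prepupa where the FK506-binding protein 2-like gene was highest. Another of that name, LOC118278536, had 122, 131 and 56.2. An FK506-binding protein 59-like gene (LOC118269798) had 29.1, 89.8 and 6.79, 11.7-fold lower in the pupa than in the prepupa on rescaled TPM + 1.

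Genes for entry into the ER and exit from it were mostly highest in the prepupa. All 4 translocation genes were lower in the pupa than in the prepupa by 2-fold or more, among them signal peptidase SEC11A-like (LOC118268163) with 205, 449 and 101, and the channel gene Sec61 subunit alpha (LOC118262163) with 158, 256 and 18.7. A second Sec61 alpha gene (LOC118262154) had 46.3, 88.2 and 5.29, and 80.4% and 86.4% of the reads of LOC118262154 and LOC118262163 were unique. Of the 11 genes of ER to Golgi vesicles, 10 were lower in the pupa than in the prepupa and 7 were higher in the prepupa than in L6. With TMM these counts were 7 and 5. The highest were a transmembrane emp24 protein bai-like gene (LOC118275425), a cargo receptor, with 374, 503 and 238, and the ER lumen protein-retaining receptor (LOC118264301), which returns escaped ER proteins, with 242, 436 and 113. The coat genes coatomer beta'-like (LOC118275640), with 10, 97.1 and 1.79, and coatomer alpha-like (LOC118270370 and LOC118270806), with 4.15 and 4.05 in L6, 58.1 and 45.3 in prepupal and 1.33 and 1.85 in pupal glands, passed 10-fold. The vesicle gene that was not lower in the pupa by 2-fold was SAR1b-like (LOC118268202), the small GTPase that starts the outward coat, with 128, 173 and 148. In all lists 13 of the 38 genes passed 10-fold between some pair of stages on rescaled TPM + 1, against 19.1% of tested genes. With TMM 7 did, against 17.9% of tested genes.

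**Figure D5:**
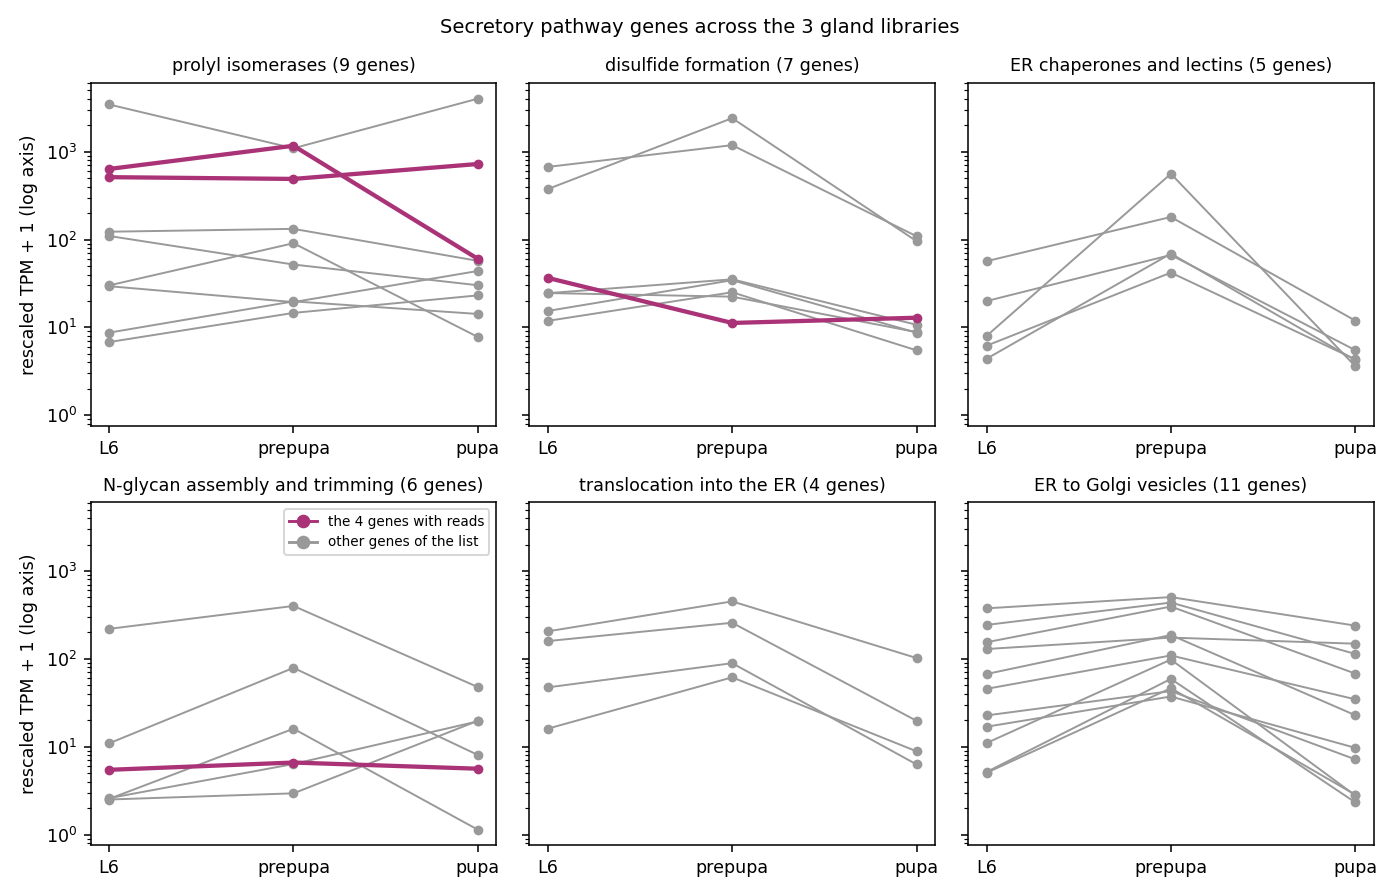
Rescaled TPM + 1 on a log axis (vertical) against stage (horizontal) for the genes with reads on 6 lists of secretory pathway genes, with the 4 members in purple and other genes in grey. Grey lines peak in the prepupa for 31 of 38 genes, while of the members the FK506-binding protein 2-like gene peaks there most clearly, at 1166.

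Genes with the most similar levels were found by the distance between log2(rescaled TPM + 1) over the 3 libraries, and with 3 points such a match is only a description. Nearest to the FK506-binding protein gene were LOC118272350, at a distance of 0.33 and without a name or unique reads, LOC118272002, an uncharacterized gene, at 0.48, and the disulfide-isomerase gene LOC118272650 at 0.86. Few genes lay this close, with 2 within a distance of 0.5. For LOC118266399 the nearest was a ubiquitin-conjugating enzyme E2-17 kDa gene (LOC118264964) at 0.26, followed by LOC118265548 and LOC118279809. Nearest to the sulfhydryl oxidase gene was a cytosolic branched-chain-amino-acid aminotransferase-like gene (LOC118263281) at 0.19, then LOC118276620 and LOC118263325. For the mannosidase gene LOC118274627, LOC118268165 and LOC118272906 came first, and 88 genes were within 0.5, a level and a flat course that many genes share.

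Genes that define Verson's glands independently of these libraries were not used here. Markers of other cell types differed between the libraries. The 8 muscle markers found by name were all highest in L6, and their summed rescaled TPM was 8415 in L6, 82.2 in prepupal and 379 in pupal glands. Of 7 fat body markers 4 were highest in the pupa and 3 in L6, with sums of 3284, 326 and 12192, and a microvitellogenin-like gene was at 0 in the pupa. The 4 genes that matched the hemocyte marker names, integrin beta-PS-like and peroxidasin-like genes, summed to 209.9, 84.4 and 54.3. Whether they mark hemocytes here was not tested. Of these, 3 were highest in L6, and an integrin beta-PS-like gene (LOC118266679) was highest in the prepupa, with 28.7, 80.2 and 37.9. The 1 gene that matched the midgut marker names, the aminopeptidase N-like gene, had 1.47, 29.5 and 0.182. No gene name matched the trachea markers or the ER stress sensors. The muscle sum was highest in L6, as was the sulfhydryl oxidase gene on rescaled TPM. The fat body sum was highest in the pupa, as was LOC118266399. From L6 to the prepupa the fat body sum fell on rescaled TPM, with 1 marker higher by 2-fold or more and 4 lower. Over that step LOC118266399 had a ratio of 0.955 rescaled and 3.46 as deposited. Of the fat body sums, apolipophorin-3 (LOC118274630) alone made up 3028, 83.5 and 10387. On rescaled TPM the aminopeptidase N-like gene, like the FK506-binding protein gene and most list genes, was highest in the prepupa and lowest in the pupa. On deposited TPM, 23 of the 38 list genes were higher in the pupa than in L6. The part of these markers in those levels was not tested.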

How the data were processed

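Verson's gland RNA of the L6, prepupa and pupa stages was sequenced by the authors on the BGISEQ-500, 1 library per stage, and CLC Genomics Workbench was used to map the reads to the species' genome. The sources used here name neither the genome build nor the handling of reads with several hits. The authors deposited raw read counts for exons, introns and junctions, as total and unique reads. The deposited TPM sums to 1000000 per library, rRNA included, and the deposited RPKM is scaled by library size.

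TPM was rescaled here without the 103 rRNA rows and the mitochondrial sequence, using Python 3.11.15, pandas 2.3.3 and SciPy 1.17.1, and TMM factors came from edgeR 4.0.16. Folds of 2 used a pseudocount of 1 and a minimum rescaled TPM of 1. No test between stages was made. Intervals are exact Poisson, Clopper-Pearson and conditional binomial intervals at 95%, and they and the floor of 3 reads cover counting error only. The scripts were tested on simulated data.

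The members and lists were chosen with earlier results of these data known. Named beside the members were the 2 genes with the highest mean in each list, list genes past 10-fold, and the 3 nearest genes of each member. SAR1b-like, TMX3-like and the N-acetylglucosaminyltransferase-like pair were added after their values were seen. A mitochondrial DnaJ gene that matched the chaperone list by its number was left out. Protein names are those the study gives, of which part was at hand, matched by accession without its version. Protein sequences were not used here, so the most identical proteins were not sought. Alternatives were deposited TPM and RPKM, rRNA left out alone, CPM, TMM, unique reads, other pseudocounts, minima and folds.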

Additional observations from a re-analysis of the deposited data

Results flagged for a closer look

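Intron reads are outside the levels reported as exon reads, and each value here was above the floor of 3 reads. The FK506-binding protein 2-like gene (LOC118277063) had 137 intron reads in L6, 504 in prepupal and 80 in pupal glands. LOC118266399 had 6, 13 and 57. The sulfhydryl oxidase 1-like gene (LOC118265187) had 104, 391 and 41, and the alpha-mannosidase 2-like gene (LOC118267030) 53, 11 and 38. The prepupa was highest for the first and the third gene, as raw reads, and L6, the shallowest library, was highest for the mannosidase gene. Whether these reads come from unspliced RNA, genomic DNA or unannotated transcripts was not tested.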

How the results depend on the processing

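The comparisons with L6 depend on the scaling. Deposited TPM raised ratios of prepupa to L6 by 3.63-fold and of pupa to L6 by 2.97-fold, and TMM changed ratios of prepupa to L6 by 0.798-fold and of pupa to L6 by 1.54-fold. From L6 to the prepupa, members higher by the fold went from 0 to 3 with deposited TPM or RPKM and to 1 at a fold of 1.5, and members lower went from 1 to 0 with deposited TPM, RPKM and a fold of 4. From the prepupa to the pupa, members higher went from 0 to 1 with CPM and 2 with TMM. From L6 to the pupa, members higher went from 0 to 2 with deposited TPM or RPKM and 1 with TMM, and members lower from 2 to 1 with deposited TPM, RPKM, TMM and a fold of 4. The sulfhydryl oxidase gene reversed, with log2 differences of prepupa against L6 of 0.0553 in deposited TPM and 0.44 in RPKM, and of pupa against L6 of 0.67 in RPKM. The share of tested genes lower in the prepupa than in L6 fell to 7.25% with deposited TPM, where 63.9% were higher. In pupa against L6, 38.1% were higher and 7.02% lower with deposited TPM. With TMM, 32.9% were higher and 26.5% lower in the pupa than in the prepupa. The difference of pupa against prepupa for the FK506-binding protein gene was between -4.56 and -3.33 on the log2 scale under every alternative run. The highest stage changed for the sulfhydryl oxidase gene, to the prepupa in deposited TPM (1.04 times the next) and the pupa in RPKM (1.21), and for the mannosidase gene, to the pupa with CPM (1.16) and TMM (1.59). Leaving out rRNA alone gave the same values as the main scale. Low depth in L6 limits the mannosidase gene, with 59 exon reads there. No paired analysis was possible because each stage has 1 library.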
